A study of Mus musculus with 9 samples.

Results

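The genes described here were the 4 ID proteins (*Id1*, *Id2*, *Id3* and *Id4*), the inhibitory SMADs *Smad6* and *Smad7*, both mouse hepcidin genes (*Hamp* and *Hamp2*) and the transferrin receptors *Tfr2* and *Tfrc*. They were taken as the probe sets annotated with a single gene symbol that is on this list, which gave 10 probe sets, 1 for each of the 10 genes, of 28815 on the array and of 21780 with a single symbol. The genes were chosen by their roles and by the log2 fold changes of these same arrays, which were known when the list was made, so the values below describe these mice and do not test the list independently.

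BMPs are secreted ligands that bind paired receptors on liver cells, and the receptors phosphorylate SMAD1, SMAD5 and SMAD9, which enter the nucleus with SMAD4. In hepatocytes this pathway drives hepcidin, the peptide hormone that removes the iron exporter ferroportin from cell surfaces, and with it a set of early target genes that includes the ID proteins and the inhibitory SMADs, which feed back on the receptors. ID proteins have a helix-loop-helix domain without a DNA-binding region and hold E proteins in dimers that cannot bind DNA.

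Affymetrix Mouse Gene 1.0 ST arrays were hybridised with liver RNA of 9 female mice of C57BL/6J background, aged 15 to 16 months, with 1 mouse per array and 3 mice per group. WTCR mice were wild-type and received a short-term calorie-restricted diet, *Dgat1*-/-AL mice lacked the triglyceride synthesis enzyme DGAT1 and ate standard chow ad libitum, and WTAL mice were wild-type littermates eating the same chow ad libitum. The comparisons asked whether calorie restriction and loss of DGAT1 share changes in liver mRNA. The *Dgat1* deletion is a germline one, and the interval between the last meal and death is not given in the sources used here. Values are log2 signals after RMA, a change of 1 being a doubling, and the number of arrays limits their precision. A gene is called higher or lower where limma gave a fold above 1.3 and an unadjusted p under 0.05, the thresholds of the study, and errors of fold changes are SE.

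Among the arrays, that labelled WTAL replicate 2 had a *Dgat1* signal of 5.67, against 7.86 and 8.05 in the other WTAL arrays. *Dgat1* was 8.90, 8.76 and 8.56 in WTCR livers and 6.14, 5.84 and 5.39 in *Dgat1*-/-AL livers, so that array went against its label, and the fold changes of the members against WTAL are given with and without it. For the other named genes and the markers, a call that changed without it is stated. *Dgat1*-/-AL replicate 1 lay at -42.1 on the second principal component, which held 26.4% of the variance, while the other arrays lay between -15.9 and 15.3. Of the hepatocyte markers 0 of 6 was called in any comparison, although *Cps1* was called in WTCR without WTAL replicate 2, at 0.39, and their summed linear signal was 70190 to 77531 in WTCR, 72655 to 78326 in *Dgat1*-/-AL and 70593 to 75121 in WTAL livers. In RNA from whole liver, fewer cells of a type and less RNA per cell cannot be told apart.

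Promoter sequences from RefSeq, on build GRCm38.p6, were matched for 8 of the 10 genes, without *Id1* and *Smad7*. The 250 bases before the start are printed for *Id3* and *Id2*, the ID genes that fell, and for the hepcidin pair, of which *Hamp2* fell. Capitals mark GGCGCC, the element bound by SMAD1 and SMAD5, and TTCNNNGAA, the form bound by STAT factors, searched on both strands. Each motif reads the same on both strands, and the motifs do not overlap in these sequences.
Id3 (chr4:136143572-136143821, + strand): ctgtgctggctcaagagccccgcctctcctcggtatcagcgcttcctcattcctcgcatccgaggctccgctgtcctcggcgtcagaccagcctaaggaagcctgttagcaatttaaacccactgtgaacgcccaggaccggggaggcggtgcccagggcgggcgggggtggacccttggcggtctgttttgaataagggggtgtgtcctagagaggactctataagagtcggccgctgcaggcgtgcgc
Id2 (chr12:25096093-25096342, - strand): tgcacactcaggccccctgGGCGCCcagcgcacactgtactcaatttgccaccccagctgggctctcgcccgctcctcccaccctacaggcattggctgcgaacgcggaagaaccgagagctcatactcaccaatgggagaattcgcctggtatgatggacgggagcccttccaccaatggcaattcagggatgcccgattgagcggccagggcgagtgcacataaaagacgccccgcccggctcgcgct
Hamp (chr7:30944030-30944279, - strand): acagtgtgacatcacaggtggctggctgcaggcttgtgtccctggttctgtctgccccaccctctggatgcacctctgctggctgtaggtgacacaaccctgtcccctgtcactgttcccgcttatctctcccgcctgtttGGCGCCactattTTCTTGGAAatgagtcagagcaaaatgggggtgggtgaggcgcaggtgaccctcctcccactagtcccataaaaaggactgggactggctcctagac
Hamp2 (chr7:30924182-30924431, - strand): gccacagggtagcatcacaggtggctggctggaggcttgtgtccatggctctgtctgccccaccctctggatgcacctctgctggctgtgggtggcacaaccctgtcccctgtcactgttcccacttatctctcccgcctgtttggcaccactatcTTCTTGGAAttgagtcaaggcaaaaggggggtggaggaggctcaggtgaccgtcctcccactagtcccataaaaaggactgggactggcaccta

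*Hamp* and *Hamp2* lie side by side on chromosome 7 with 1 annotated pseudogene, *Usf2-ps1*, between them, and 227 of 247 aligned bases of their promoters were identical. Of the 20 differences, 1 fell in the GGCGCC of *Hamp* and was G145A, counted from 1 at the 5′ end of the printed *Hamp* sequence, which leaves *Hamp2* with GGCACC. The TTCNNNGAA match beside it was present in both genes. GGCGCC was also found once in *Id2*, *Id4* and the first of the annotated *Tfrc* starts, and not in *Id3*, *Smad6* or the *Tfr2* starts. Of 32851 promoter windows of the same length, of which a gene can have several, 9.59% held it. That share was not matched for G and C bases, which made up 57.2% of the *Hamp* window, 62.8% of those of *Id2* and *Id3* and 75.6% of that of *Id4*. TTCNNNGAA was found in 7.02% of all promoters and, among the 8 genes, only in the hepcidin pair.

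*Id3* was lower in both WTCR and *Dgat1*-/-AL livers than in WTAL livers. ID3 restrains E proteins in many cell types, lymphocytes and endothelial cells among them. Its log2 signal was 7.99, 8.57 and 7.77 in WTCR livers, 8.27, 8.31 and 7.93 in *Dgat1*-/-AL livers, and 9.18, 9.01 and 9.72 in WTAL livers. Every WTCR and every *Dgat1*-/-AL array lay below every WTAL array. The fold change was -1.19 ± 0.24 in WTCR, a 2.29-fold lower signal (limma, adjusted p = 0.0361), and -1.13 ± 0.24 in *Dgat1*-/-AL, a 2.19-fold lower signal. Against WTAL, the *Dgat1*-/-AL fold change ranked at 7 from the most negative of 28815 probe sets, although 0 probe sets passed an adjusted p of 0.05 in that limma comparison (1316 had an unadjusted p under 0.05) and that of *Id3* was 0.961.

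These changes did not rest on a single array. The *Id3* fold change lay between -1.43 and -0.98 in WTCR and between -1.28 and -0.92 in *Dgat1*-/-AL when each array was left out in turn, and was called every time. Without the array labelled WTAL replicate 2 it was -1.34 in WTCR and -1.28 in *Dgat1*-/-AL. The adjusted p in WTCR lay between 0.0392 and 0.121 over the arrays left out and was 0.0562 without WTAL replicate 2. WTCR and *Dgat1*-/-AL livers differed in *Id3* by -0.06 ± 0.24, with a 95% interval from -0.61 to 0.48, which leaves room for a difference of more than the 1.3-fold threshold either way.

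*Id2* was lower in WTCR livers than in either other group. In mice, ID2 is known for a daily rhythm in liver and for a part in lipid and glucose handling. Its log2 signal was 9.86, 9.78 and 9.67 in WTCR livers, 10.96, 10.39 and 10.21 in *Dgat1*-/-AL livers, and 10.34, 10.54 and 10.78 in WTAL livers. All 3 WTCR arrays lay below the other 6. The fold change was -0.79 ± 0.19 in WTCR against WTAL, a 1.72-fold lower signal (limma, adjusted p = 0.0665), and -0.75 ± 0.19 against *Dgat1*-/-AL (adjusted p = 0.0752). *Dgat1*-/-AL and WTAL livers overlapped, with a fold change of -0.03 ± 0.19 and a 95% interval from -0.46 to 0.39. The call against WTAL held with any array left out, at -0.89 to -0.67, and the fold change was -0.79 without WTAL replicate 2.

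*Id1* and *Id4* were not called in any comparison. *Id1*, a common readout of BMP signalling in liver, had log2 signals of 7.05, 7.26 and 7.05 in WTCR, 6.90, 7.05 and 6.98 in *Dgat1*-/-AL and 7.00, 7.05 and 7.70 in WTAL livers. Only WTAL replicate 3 stood above the rest. The fold changes were -0.13 ± 0.17 in WTCR and -0.27 ± 0.17 in *Dgat1*-/-AL, with 95% intervals from -0.52 to 0.26 and from -0.66 to 0.12. Without WTAL replicate 2 they were -0.23 in WTCR and -0.37 in *Dgat1*-/-AL. *Id4* ranged over 6.37 to 6.61 in WTCR, 6.42 to 7.00 in *Dgat1*-/-AL and 6.52 to 6.70 in WTAL livers, and it was called only in WTCR against *Dgat1*-/-AL without *Dgat1*-/-AL replicate 1, at -0.41. Its fold changes were -0.13 ± 0.14 in WTCR and 0.12 ± 0.14 in *Dgat1*-/-AL, at -0.14 and 0.12 without WTAL replicate 2. The E proteins *Tcf3*, *Tcf4* and *Tcf12*, the partners that ID proteins hold, gave 0 calls of 3 in each comparison, and the most negative of their fold changes was -0.27 ± 0.13 for *Tcf4* in WTCR.

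**Figure D1:**
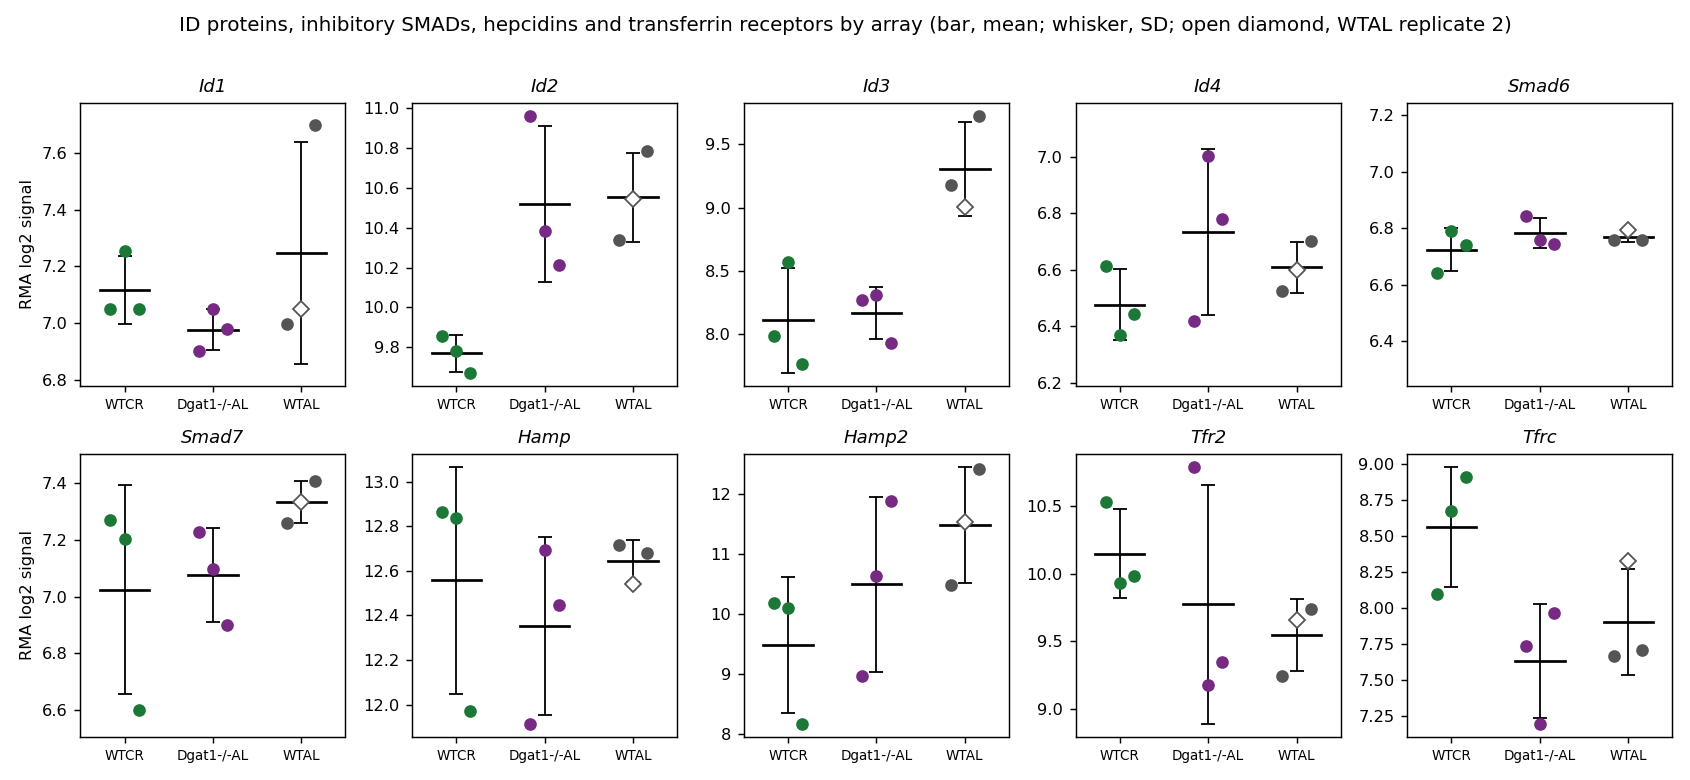
RMA log2 signal of the 10 genes in each of the 9 arrays, with WTCR left, *Dgat1*-/-AL in the middle and WTAL right; bars are means, whiskers SD over 3 mice, and the open diamond is the array labelled WTAL replicate 2. Each panel has its own scale. *Id3* was at or below 8.57 in all WTCR and *Dgat1*-/-AL arrays and at or above 9.01 in all WTAL arrays, while *Hamp2* spread over more than 2 log2 units within WTCR.

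Markers of several cell types were called, where 8.06% of all probe sets were called in WTCR against WTAL and 1.23% in *Dgat1*-/-AL against WTAL. Of the Kupffer cell and macrophage markers, 3 of 8 (*Adgre1*, *Clec4f* and *C1qa*) were lower in WTCR and the same 3 were lower in *Dgat1*-/-AL. The summed linear signal of all 8 was 2011 to 3026 in WTCR, 2278 to 3122 in *Dgat1*-/-AL and 2602 to 3874 in WTAL livers. The fold changes of the uncalled ones ran from -0.54 ± 0.27 for *Csf1r* to -0.03 ± 0.41 for *Marco* in WTCR. In *Dgat1*-/-AL they ran from -0.75 ± 0.41 for *Marco* to 0.31 ± 0.27 for *Csf1r*. Of the sinusoidal endothelial markers, 1 of 10 (*Clec4g*) was lower in WTCR. In *Dgat1*-/-AL, 3 (*Stab1*, *Stab2* and *Cdh5*) were higher and 2 (*Lyve1* and *Clec4g*) lower. *Clec4g* was called only at the brighter of its probe sets. The sums were 2668 to 3676 in WTCR, 3877 to 4746 in *Dgat1*-/-AL and 4553 to 5120 in WTAL livers. That probe set made up much of these sums. The mean log2 signal of the list was 7.23 to 7.64, 7.65 to 7.94 and 7.54 to 7.75 in those groups. The fold changes of the uncalled genes ran from -0.41 ± 0.21 for *Stab2* to 0.10 ± 0.15 for *Lyve1* in WTCR. In *Dgat1*-/-AL they ran from 0.02 ± 0.19 for *Oit3* to 0.54 ± 0.24 for *Kdr*. Of the stellate cell markers, 3 of 7 (*Lrat*, *Colec11* and *Reln*) were lower for WTCR and 0 for *Dgat1*-/-AL, with sums of 3831 to 4217 in WTCR, 3321 to 4242 in *Dgat1*-/-AL and 3569 to 4143 in WTAL livers. The fold changes of the other stellate cell markers in WTCR ran from -0.28 ± 0.11 for *Pdgfrb* to 0.21 ± 0.12 for *Dcn*. *Dcn* made up much of the stellate cell sums. The mean log2 signal of that list was 7.77 to 7.83 in WTCR, 8.03 to 8.24 in *Dgat1*-/-AL and 7.99 to 8.06 in WTAL livers. B cell markers were dim, and 3 of 4 (*Cd79a*, *Cd79b* and *Ms4a1*) were lower for WTCR and 0 for *Dgat1*-/-AL, with sums of 107 to 121 in WTCR, 120 to 137 in *Dgat1*-/-AL and 141 to 162 in WTAL livers. Without WTAL replicate 2 the calls of *C1qa* in WTCR, at -0.43, and of *Adgre1* in *Dgat1*-/-AL, at -0.74, were lost. In WTCR against *Dgat1*-/-AL 8.59% of all probe sets were called. There 8 of 10 endothelial markers were called, 7 lower and *Lyve1* higher. Of the 7 stellate cell markers, 3 (*Lrat*, *Colec11* and *Reln*) were lower and *Dcn* was higher. Of the 8 Kupffer cell and macrophage markers only *Csf1r* was called, lower, and of the B cell markers 0 was called. The part of these cell types in the *Id3* and *Id2* values was not tested.

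The inhibitory SMADs were not called in any group. SMAD6 and SMAD7 bind activated receptors and block the receptor SMADs, and both genes are targets of the pathway they inhibit. *Smad6* was nearly level, at 6.64, 6.79 and 6.74 in WTCR, 6.84, 6.76 and 6.74 in *Dgat1*-/-AL and 6.76, 6.79 and 6.76 in WTAL livers. Its fold changes were -0.05 ± 0.06 in WTCR and 0.01 ± 0.06 in *Dgat1*-/-AL, and the widest bound of their 95% intervals was -0.19, which lies inside the 1.3-fold threshold of 0.38. Without WTAL replicate 2 *Smad6* was at 0.02 in *Dgat1*-/-AL and at -0.04 in WTCR. *Smad7* was 7.27, 7.20 and 6.60 in WTCR, 7.23, 7.10 and 6.90 in *Dgat1*-/-AL and 7.26, 7.33 and 7.41 in WTAL livers. Its fold changes were -0.31 ± 0.17 in WTCR and -0.26 ± 0.17 in *Dgat1*-/-AL, and the *Dgat1*-/-AL arrays all lay below the WTAL arrays, whereas the WTCR arrays overlapped them. Without WTAL replicate 2 they were unchanged to 2 decimals. WTCR replicate 3 set much of the WTCR value, since it was -0.10 without that array, and *Smad7* was called in WTCR only without WTCR replicate 1, at -0.43.

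*Hamp*, the hepcidin gene that controls systemic iron in mice, was not called in any comparison. It stood at 12.86, 12.84 and 11.97 in WTCR, 11.91, 12.69 and 12.45 in *Dgat1*-/-AL and 12.72, 12.54 and 12.68 in WTAL livers. The groups overlapped, and the lowest arrays were WTCR replicate 3 and *Dgat1*-/-AL replicate 1. The fold changes were -0.09 ± 0.26 in WTCR and -0.29 ± 0.26 in *Dgat1*-/-AL, with 95% intervals from -0.68 to 0.51 and from -0.89 to 0.30. Without WTAL replicate 2 they were -0.14 in WTCR and -0.35 in *Dgat1*-/-AL. WTCR against *Dgat1*-/-AL gave 0.21 ± 0.26, which was called at 0.50 without WTCR replicate 3 and was -0.01 without *Dgat1*-/-AL replicate 1.

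*Hamp2* was lower in WTCR livers and was among the most variable probe sets of the array. Hepcidin 2 is found in mice and not in humans, and mice made to overproduce it did not develop the iron deficiency that hepcidin 1 causes. Its log2 signal was 10.18, 10.10 and 8.16 in WTCR, 8.97, 10.63 and 11.88 in *Dgat1*-/-AL and 10.49, 11.54 and 12.43 in WTAL livers. All WTCR arrays lay below all WTAL arrays, while the *Dgat1*-/-AL arrays spanned most of both ranges. The fold change in WTCR was -2.00 ± 0.82, a 4.01-fold lower signal with a 95% interval from -3.88 to -0.13 (limma, adjusted p = 0.292). In *Dgat1*-/-AL it was -0.99 ± 0.82, without a call, and the difference between WTCR and *Dgat1*-/-AL was -1.01 ± 0.82.

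The pooled SD of *Hamp2* within groups was 1.21 log2 units, against a median of 0.128 over all probe sets, and ranked at 12 from the highest of 28815. The call in WTCR was lost without WTCR replicate 3, *Dgat1*-/-AL replicate 2, WTAL replicate 2 or WTAL replicate 3, and the fold change lay between -2.50 and -1.34 over all arrays left out and was -1.98 without WTAL replicate 2. In *Dgat1*-/-AL against WTAL it lay between -1.68 and -0.23 over all arrays left out, at -0.23 without *Dgat1*-/-AL replicate 1, and was -0.96 without WTAL replicate 2. *Hamp2* in WTCR against *Dgat1*-/-AL was called at -1.78 without *Dgat1*-/-AL replicate 1. *Hamp* and *Hamp2* are related genes whose transcript and probe sequences were not compared here. Their probes may share transcripts, and the separate values are uncertain to that extent.

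*Tfrc* was the only member called higher in the fit of all arrays. Transferrin receptor 1 carries iron-loaded transferrin into cells, and its mRNA is held stable by iron regulatory proteins when cellular iron is low. The log2 signal was 8.10, 8.68 and 8.91 in WTCR, 7.73, 7.19 and 7.96 in *Dgat1*-/-AL and 7.67, 8.32 and 7.70 in WTAL livers. All WTCR arrays lay above all *Dgat1*-/-AL arrays, and WTCR replicate 1 lay below WTAL replicate 2. The fold change was 0.66 ± 0.27 in WTCR against WTAL, a 1.58-fold higher signal (limma, adjusted p = 0.293), and 0.93 ± 0.27 against *Dgat1*-/-AL, a 1.91-fold higher signal (adjusted p = 0.122). In *Dgat1*-/-AL against WTAL it was -0.27 ± 0.27 and was not called, and without WTAL replicate 2 it was -0.06.

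The difference in *Tfrc* between WTCR and *Dgat1*-/-AL was called with any array left out, at 0.71 to 1.16. That between WTCR and WTAL lay between 0.49 and 0.89, was 0.88 without WTAL replicate 2, and lost its call without WTCR replicate 2, WTCR replicate 3, WTAL replicate 1 or WTAL replicate 3. Erythroid precursors and dividing cells are rich in this receptor. Of the erythroid markers 0 of 3 measured was called in any comparison, with sums of 255 to 331 in WTCR, 261 to 290 in *Dgat1*-/-AL and 273 to 315 in WTAL livers. Of 4 proliferation markers measured, *Rrm2* was higher in WTCR than in WTAL livers and *Top2a* was lower at 1 of 2 probe sets, a call lost without WTAL replicate 2, and their part in the *Tfrc* values was not tested.

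*Tfr2*, which senses iron-loaded transferrin on hepatocytes and promotes hepcidin, was not called. It was 10.53, 9.93 and 9.98 in WTCR, 10.79, 9.18 and 9.35 in *Dgat1*-/-AL and 9.24, 9.65 and 9.74 in WTAL livers. All WTCR arrays lay above all WTAL arrays, and *Dgat1*-/-AL replicate 1 stood far above its own group. The fold changes were 0.61 ± 0.39 in WTCR and 0.23 ± 0.39 in *Dgat1*-/-AL, at 0.66 and 0.28 without WTAL replicate 2. Without *Dgat1*-/-AL replicate 1, *Tfr2* was called in WTCR against WTAL at 0.61 and against *Dgat1*-/-AL at 0.89, while its fold change in *Dgat1*-/-AL against WTAL turned to -0.28. In a fit of the WTCR and WTAL arrays alone it was called too, at 0.61 ± 0.20.

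**Figure D2:**
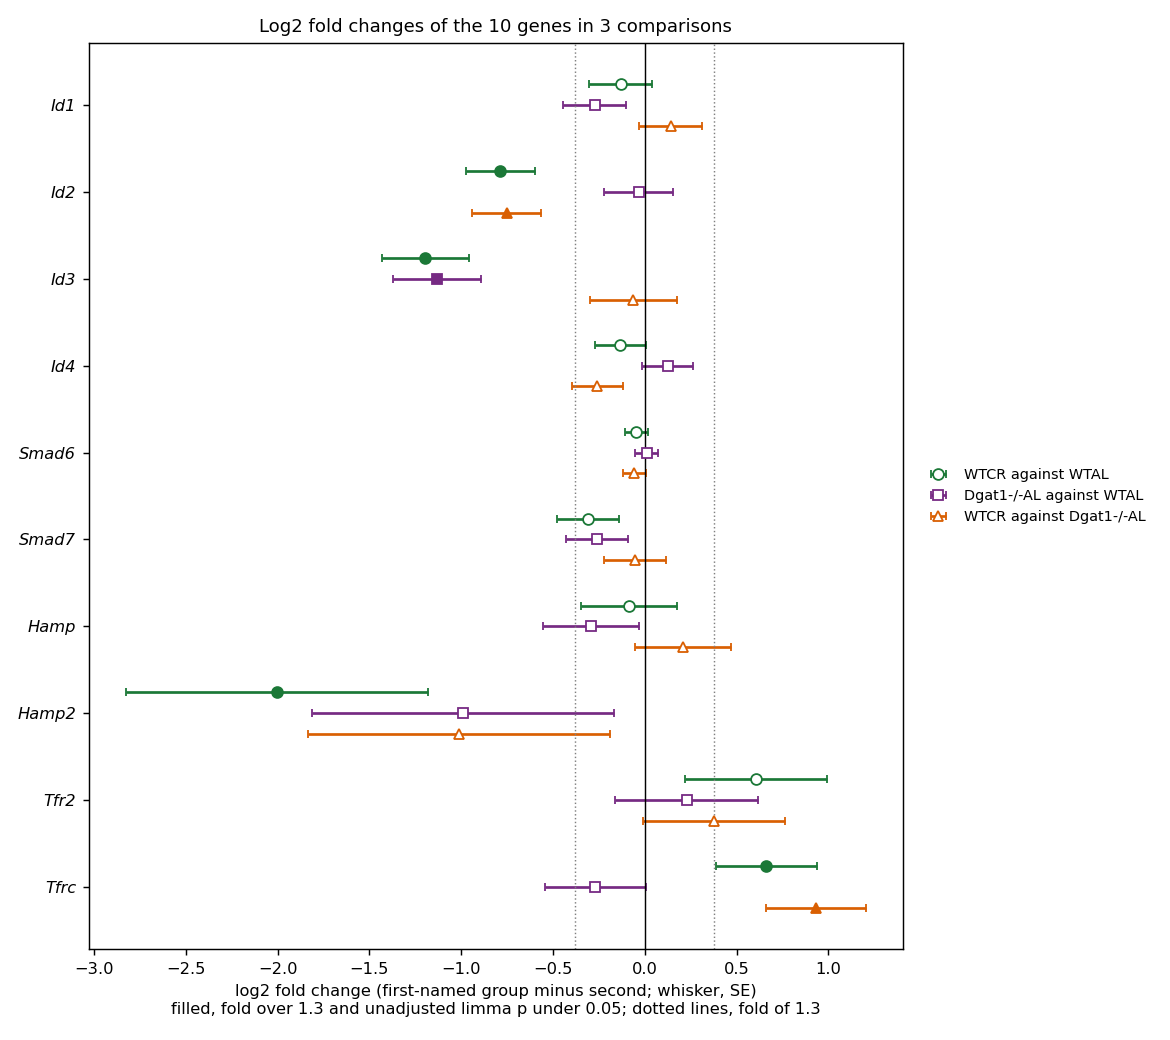
Log2 fold change of the 10 genes in WTCR against WTAL (circles), *Dgat1*-/-AL against WTAL (squares) and WTCR against *Dgat1*-/-AL (triangles), with SE as whiskers. Filled symbols passed a fold of 1.3 and an unadjusted limma p under 0.05. *Id3* is the only gene filled in both comparisons with WTAL, at -1.19 and -1.13, and *Hamp2* has the widest whiskers, at 0.82.

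Over the 10 genes, 4 were called in WTCR against WTAL (*Tfrc* higher, *Id2*, *Id3* and *Hamp2* lower), where 8.06% of all probe sets were called, 4.25% higher and 3.81% lower. In *Dgat1*-/-AL against WTAL 1 was called (*Id3*), where 1.23% of all probe sets were called and 0.76% were called lower. In WTCR against *Dgat1*-/-AL 2 were called (*Tfrc* higher, *Id2* lower), with 8.59% of all probe sets called, 4.66% higher and 3.93% lower. At an adjusted p under 0.05 the counts were 1 (*Id3*), 0 and 0 members in those comparisons, where 3.03%, 0% and 3.06% of all probe sets passed. The arrays of the compared groups did not overlap for 4 members in WTCR against WTAL (*Id2*, *Id3*, *Hamp2* and *Tfr2*), 2 in *Dgat1*-/-AL against WTAL (*Id3* and *Smad7*) and 2 in WTCR against *Dgat1*-/-AL (*Id2* and *Tfrc*), and for 19.6%, 7.02% and 16.1% of all probe sets. Both comparisons with WTAL share the same WTAL arrays. Nothing is read from these shares, because the list was chosen with these contrasts known. The median fold change of the 10 genes was -0.13 in WTCR and -0.26 in *Dgat1*-/-AL, beside medians of 0.00 over all probe sets in each.

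**Figure D3:**
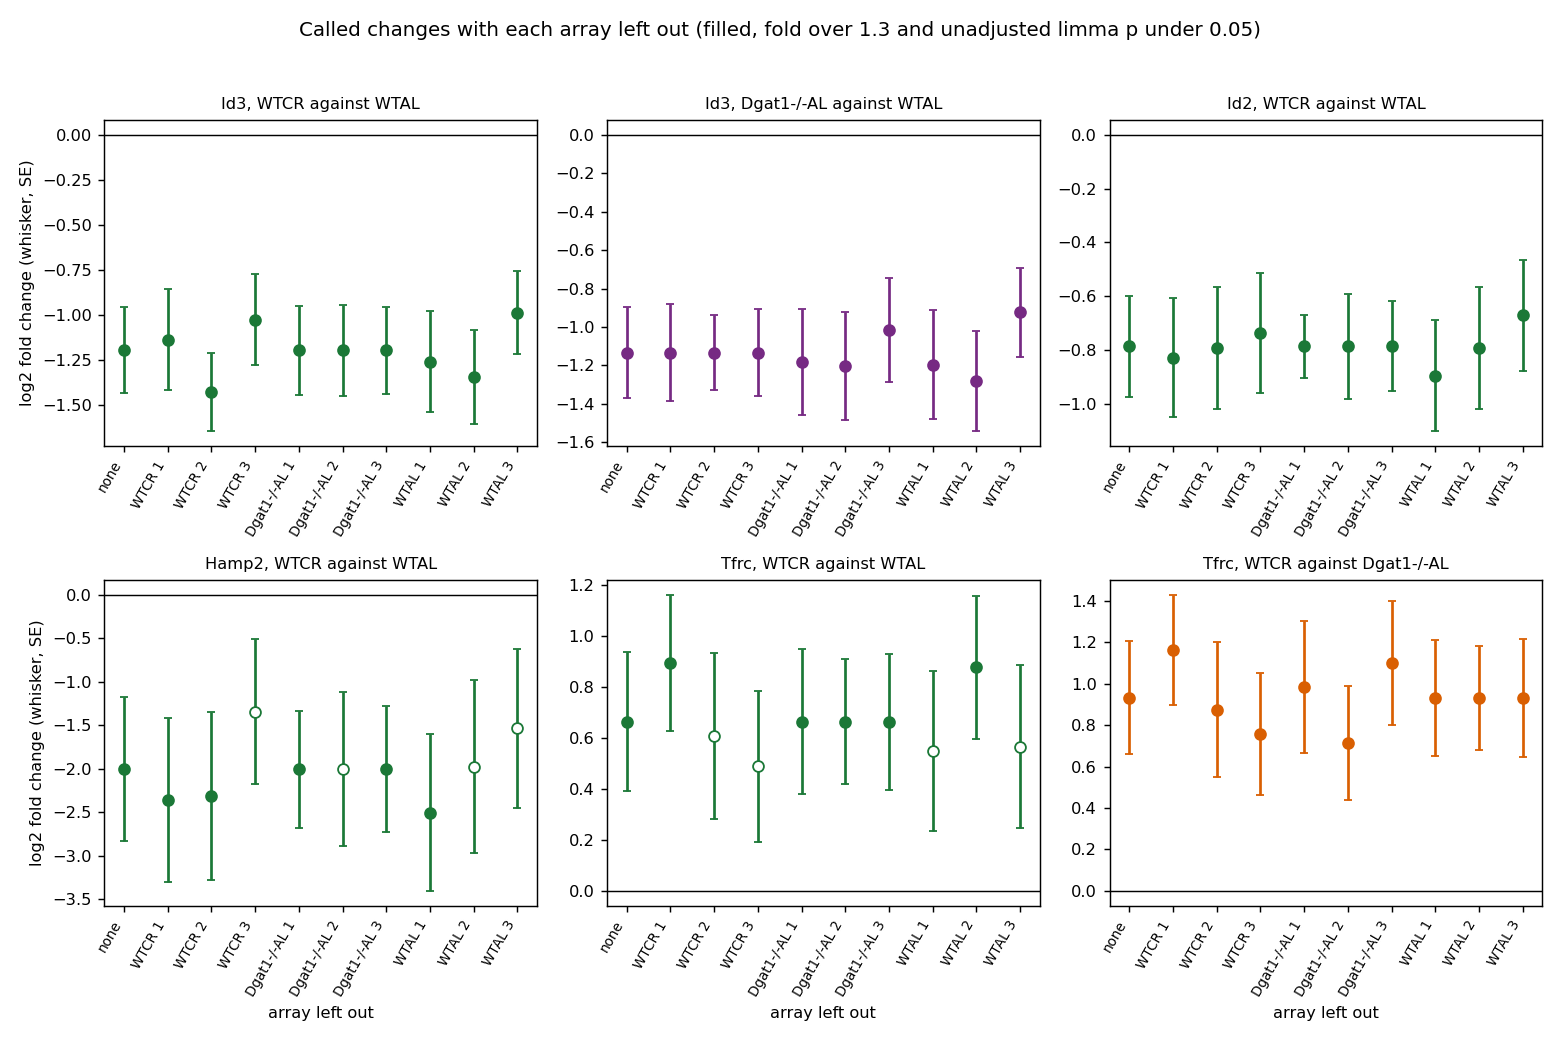
Log2 fold change, with SE as whiskers, of 6 called changes with all arrays (none) and with each of the 9 arrays left out; filled symbols were called. *Id3* and *Id2* stay filled throughout, as does *Tfrc* against *Dgat1*-/-AL, while *Hamp2* and *Tfrc* against WTAL each turn open for 4 of the 9 arrays.

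For the members called in any comparison, the single-symbol probe sets with the most similar signal over the 9 arrays were found by Pearson's r, as a description over arrays that share their groups. Those closest to *Id3* were *Sfxn3* (r = 0.96), *Igha*, *Mir340*, *Uba7* and *Zfp773* (r = 0.91). Those closest to *Id2* were *Stra6l* (r = 0.98), *Trim25*, *Selenoi*, *Rtp3* and *Zfp454* (r = 0.96). *Hamp2* was followed most closely by *Rimklb* (r = 0.94), *Olfr867*, *Capns2*, *Arpc5* and *Mospd1* (r = 0.92), and *Tfrc* by *Slurp1* (r = 0.96), *Celsr2*, *Abhd16a*, *Kansl2* and *Cd3eap* (r = 0.94). *Igha*, the constant region of immunoglobulin A, had a fold change of -0.65 for WTCR and of -0.63 for *Dgat1*-/-AL against WTAL, and *Rtp3*, a liver gene of the receptor transporter family, of -1.01 for WTCR and of -0.01 for *Dgat1*-/-AL.

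Around these members, 97 other genes of the pathway, of its IL-6 input and of iron handling were listed, and 93 were measured. In WTCR against WTAL 10 were called higher and 6 lower, in *Dgat1*-/-AL against WTAL 3 higher and 2 lower, and in WTCR against *Dgat1*-/-AL 9 higher and 7 lower, where 8.06%, 1.23% and 8.59% of all probe sets were called. Leaving out WTAL replicate 1 brought the first count to 10 in all, and leaving out WTAL replicate 2 brought that of *Dgat1*-/-AL to 3. Their median fold change was 0.01 in WTCR and 0.03 in *Dgat1*-/-AL.

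Of the 14 ligands measured, 2 were lower in WTCR (*Inhba* and *Inhbe*), and in *Dgat1*-/-AL *Bmp2* was higher and *Inhba* lower. *Inhba* encodes the activin A subunit, which signals mainly through SMAD2 and SMAD3. It was 6.23, 6.07 and 6.28 in WTCR, 6.23, 6.08 and 5.98 in *Dgat1*-/-AL and 6.46, 6.82 and 6.84 in WTAL livers. Like those of *Id3*, all 6 of its WTCR and *Dgat1*-/-AL values lay below all WTAL values. The fold changes were -0.51 ± 0.12 in WTCR and -0.61 ± 0.12 in *Dgat1*-/-AL (limma, adjusted p = 0.061 and 0.961), and both were called with any array left out. *Inhbe*, the activin E subunit made by hepatocytes, was 5.98, 6.11 and 5.95 in WTCR, 7.25, 6.70 and 6.70 in *Dgat1*-/-AL and 6.81, 7.21 and 6.97 in WTAL livers. It fell by 0.99 ± 0.16 in WTCR against WTAL (adjusted p = 0.0195), and its fold change in *Dgat1*-/-AL was -0.12 ± 0.16.

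*Bmp6*, which endothelial cells of the liver make in response to iron to raise hepcidin, was not called, at 0.10 ± 0.08 in WTCR and at 0.08 ± 0.08 in *Dgat1*-/-AL. *Bmp2*, the other endothelial BMP that drives hepcidin, was 7.14, 6.99 and 7.06 in WTCR, 7.20, 7.79 and 7.52 in *Dgat1*-/-AL and 7.10, 6.72 and 7.06 in WTAL livers. All *Dgat1*-/-AL arrays lay above the other 6 arrays. It rose by 0.55 ± 0.15 in *Dgat1*-/-AL and was called there with any array left out, at 0.43 without WTAL replicate 2, while its fold change in WTCR was 0.11 ± 0.15. Of 10 endothelial markers, *Stab1*, *Stab2* and *Cdh5* were called higher in *Dgat1*-/-AL too, *Cdh5* not without *Dgat1*-/-AL replicate 1. *Lyve1*, at -0.64 ± 0.15, and *Clec4g*, at the brighter of its probe sets, were called lower there, where 1.23% of all probe sets were called. The part of these cells in the *Bmp2* value was not tested. *Inhbc* and *Bmp10* were called only in WTCR against *Dgat1*-/-AL, at -0.51 ± 0.20 and 0.43 ± 0.15, and both calls were lost without *Dgat1*-/-AL replicate 1, that of *Inhbc* also without WTCR replicate 1 or 2 and that of *Bmp10* without WTCR replicate 3. In a fit of those 6 arrays alone neither was called, and with the replicate number as a block in that fit *Bmp10* was called and *Inhbc* was not.

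BMP and TGF-β ligands act through type I and type II receptors, and extracellular antagonists hold the ligands back. Of 14 receptors and coreceptors, *Tgfbr1* and *Tgfbr2*, the TGF-β receptors, were called higher in WTCR at 0.41 ± 0.16 and 0.39 ± 0.15, and 0 in *Dgat1*-/-AL. *Tgfbr2* lay outside the rule for named genes and is named because the count was small. The *Tgfbr1* call was lost without WTCR replicate 2, WTCR replicate 3 or any WTAL array, and that of *Tgfbr2* without WTCR replicate 1, WTCR replicate 3, WTAL replicate 1 or WTAL replicate 2. *Tgfbr1* was higher also in WTCR against *Dgat1*-/-AL, at 0.67 ± 0.16, and stayed called with any array left out. Of 11 antagonists *Bmper*, a secreted BMP-binding protein, was called higher in WTCR at 0.56 ± 0.24, which was lost without WTCR replicate 1, WTCR replicate 3, *Dgat1*-/-AL replicate 2 or any WTAL array. In WTCR against *Dgat1*-/-AL it was 0.46 ± 0.24 and was called with the replicate number as a block over those 6 arrays, at 0.46 ± 0.13, or without WTCR replicate 2 or *Dgat1*-/-AL replicate 1.

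The receptor SMADs differed among themselves. *Smad9*, which encodes the BMP-regulated SMAD8, was 7.64, 7.42 and 7.24 in WTCR, 6.13, 6.01 and 5.92 in *Dgat1*-/-AL and 6.13, 5.91 and 5.79 in WTAL livers. WTCR arrays stood more than 1 log2 unit above all others. The fold change was 1.49 ± 0.12 in WTCR against WTAL (limma, adjusted p = 0.0019) and 0.08 ± 0.12 in *Dgat1*-/-AL, and the WTCR value was called with any array left out. *Smad4*, the common partner, was higher in WTCR by 0.38 ± 0.13, a call that was lost without WTCR replicate 1 or WTAL replicate 1, and *Smad1* stood at 0.10 ± 0.09 for WTCR and at 0.02 ± 0.09 for *Dgat1*-/-AL. The promoter of *Smad9* also held 1 GGCGCC.

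**Figure D4:**
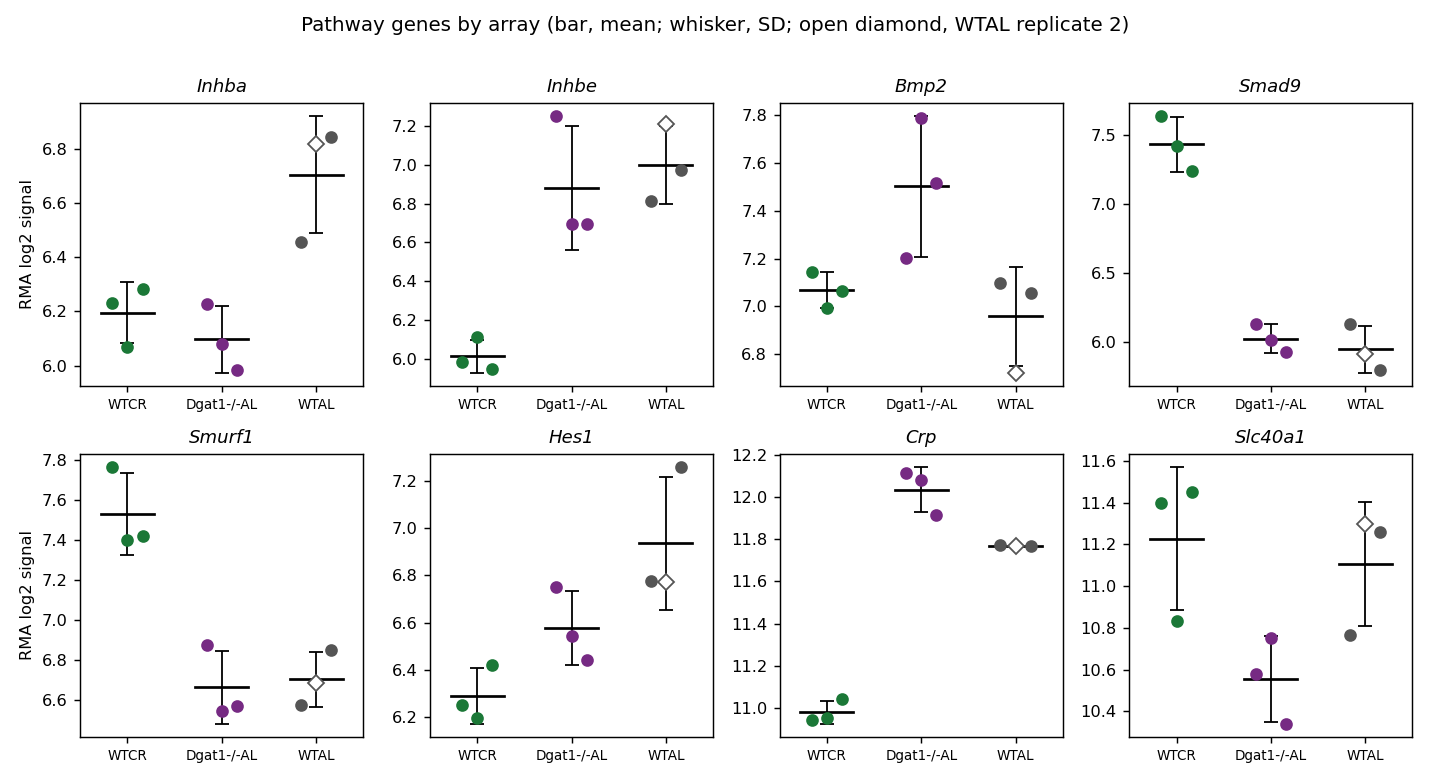
RMA log2 signal of 8 other genes of the pathway and of iron handling in each array, drawn as for the members, with WTCR left and WTAL right. *Inhba* was at or below 6.28 in all WTCR and *Dgat1*-/-AL arrays and at or above 6.46 in WTAL arrays, *Smad9* was at or above 7.24 in WTCR arrays alone, and *Bmp2* was highest in the *Dgat1*-/-AL arrays.

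Among 10 other targets and cofactors, *Smurf1*, a ubiquitin ligase for BMP-regulated SMADs and receptors, rose by 0.82 ± 0.13 in WTCR (limma, adjusted p = 0.018), and had a fold change of -0.04 ± 0.13 in *Dgat1*-/-AL. *Hes1*, a Notch target and helix-loop-helix repressor, fell by 0.65 ± 0.14 in WTCR and had a fold change of -0.36 ± 0.14 in *Dgat1*-/-AL, which was called without *Dgat1*-/-AL replicate 1, WTAL replicate 1 or WTAL replicate 2, at -0.44 without the last. *Atoh8*, a direct BMP target in hepatocytes, gave 0.01 ± 0.16 for WTCR and -0.18 ± 0.16 for *Dgat1*-/-AL.

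IL-6 acts on hepcidin through STAT3. Of 11 genes of this input, *Il6ra*, its receptor, was higher in WTCR by 0.77 ± 0.25, and *Il6st*, the shared signalling chain, was lower, at -0.56 ± 0.15. The *Il6ra* call was lost without WTAL replicate 1. *Crp*, an acute-phase gene, was 10.94, 10.95 and 11.04 in WTCR, 12.11, 12.08 and 11.91 in *Dgat1*-/-AL and 11.77 in each of the 3 WTAL livers. It fell by 0.79 ± 0.07 in WTCR (limma, adjusted p = 0.0028) and had a fold change of 0.27 ± 0.07 in *Dgat1*-/-AL, under the 1.3-fold threshold. The acute-phase genes *Saa1* and *Saa2* were higher in *Dgat1*-/-AL, at 2.11 ± 0.78 and 2.17 ± 0.79, calls that were lost without *Dgat1*-/-AL replicate 1, *Dgat1*-/-AL replicate 2 or WTAL replicate 2, and for *Saa2* also without WTAL replicate 1. *Saa2* was lower in WTCR, at -1.85 ± 0.79, a call lost without WTCR replicate 2, WTCR replicate 3, *Dgat1*-/-AL replicate 2 or any WTAL array. *Saa1* was at -1.75 ± 0.78 in WTCR against WTAL and was not called, but it was called without WTCR replicate 1, *Dgat1*-/-AL replicate 1 or *Dgat1*-/-AL replicate 3. They are near-identical copies whose probe sets may share transcripts. Against *Dgat1*-/-AL, WTCR livers were lower in *Saa1*, at -3.86 ± 0.78, and in *Saa2*, at -4.02 ± 0.79, and both calls held with any array left out.

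Of 24 iron genes measured, 3 were higher in WTCR and 1 was lower in *Dgat1*-/-AL. *Slc40a1*, the ferroportin that hepcidin removes, was 11.40, 10.83 and 11.45 in WTCR, 10.58, 10.75 and 10.34 in *Dgat1*-/-AL and 10.76, 11.30 and 11.26 in WTAL livers. It was lower in *Dgat1*-/-AL by -0.55 ± 0.20, a call that was lost without *Dgat1*-/-AL replicate 3, WTAL replicate 2 or WTAL replicate 3, and its fold change in WTCR was 0.12 ± 0.20. Kupffer cells, which recycle iron, are rich in ferroportin. Of their markers 3 of 8 were lower in *Dgat1*-/-AL, or 2 of 8 without WTAL replicate 2, and their part in the *Slc40a1* value was not tested. The genes higher in WTCR were *Hmox2*, a haem oxygenase, at 0.71 ± 0.08 (limma, adjusted p = 0.0074), *Slc25a28*, a mitochondrial iron importer, at 0.43 ± 0.09, and *Cd163*, the macrophage receptor for haemoglobin, at 0.80 ± 0.26. The *Cd163* call was lost without WTCR replicate 3 or WTAL replicate 3 and that of *Slc25a28* without WTAL replicate 1. While *Cd163* was higher in WTCR, 3 of 8 Kupffer cell and macrophage markers were called lower there and 0 higher.

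**Figure D5:**
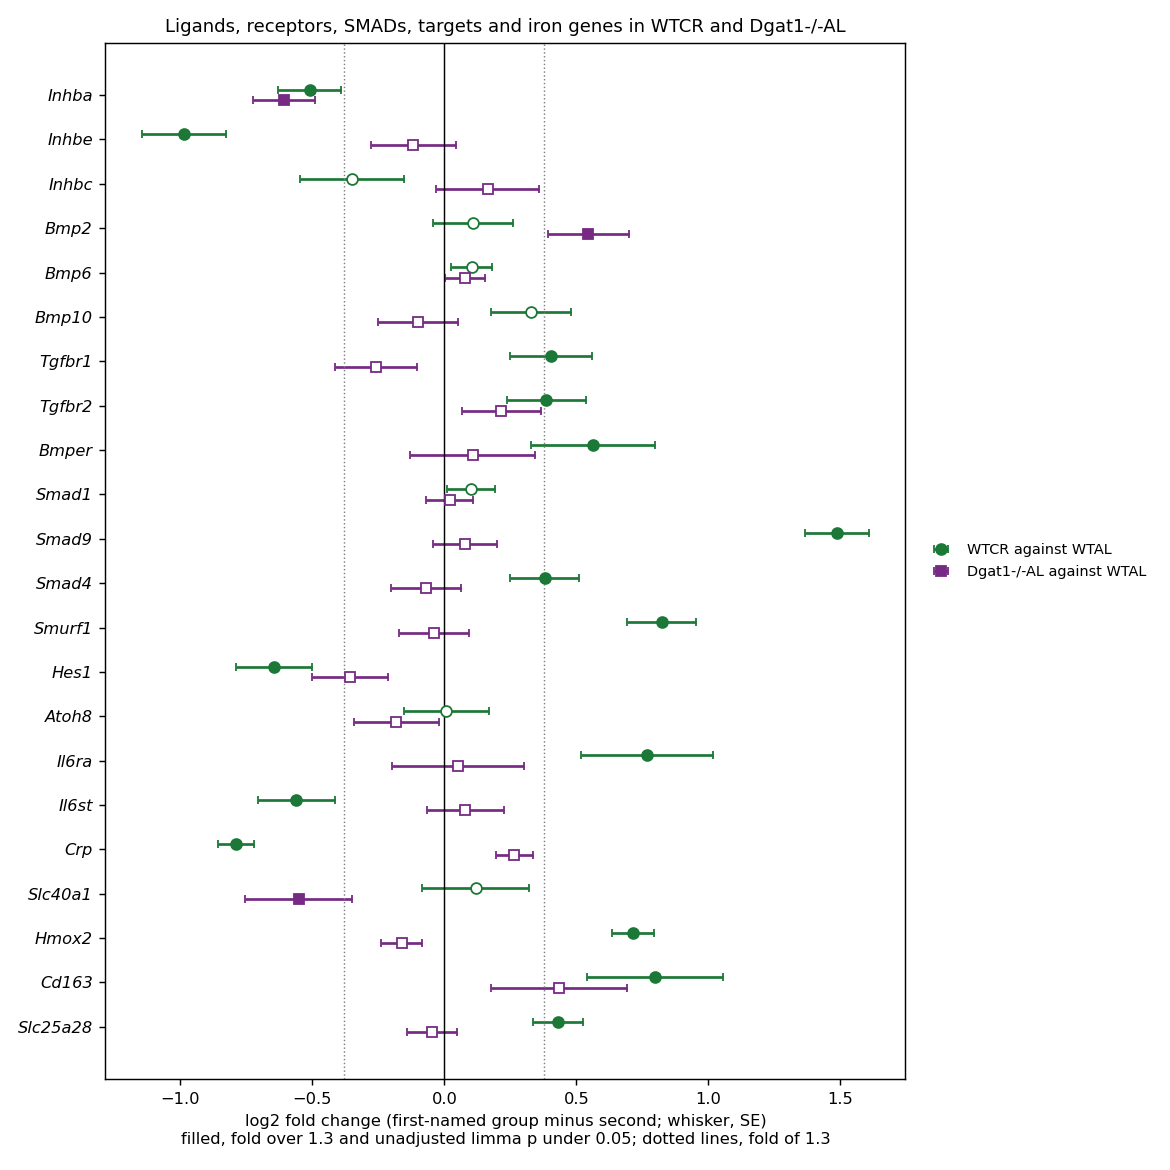
Log2 fold change, with SE as whiskers, of 22 named ligands, receptors, SMADs, targets, IL-6 input and iron genes in WTCR against WTAL (circles) and *Dgat1*-/-AL against WTAL (squares); filled symbols were called. *Inhba* is the only gene filled in both, and *Smad9* lies farthest to the right, at 1.49 in WTCR. *Saa1* and *Saa2* are left out of the plot for their scale.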

How the data were processed

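Liver RNA of 9 mice (WTCR, *Dgat1*-/-AL and WTAL, 3 each, grouped by the labels) had been hybridised to Affymetrix Mouse Gene 1.0 ST arrays. The deposited values are log2 signals that the authors computed with RMA, named in the submitters' processing notes, which includes background correction and quantile normalization, so that a shift common to all genes would be lost. The build and the settings of RMA are not given in the sources used here. The values were used as deposited, with no filter. Of 28815 probe sets, 21780 carried 1 gene symbol in the platform annotation, 1605 several and 5430 none, and members were named only from single-symbol probe sets.

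All probe sets were fitted with limma 3.58.1 in R 4.3.3, with 1 mean per group over the 9 arrays (8.65 residual and prior degrees of freedom) and Benjamini-Hochberg adjustment over all probe sets. As in the study, calls required a fold above 1.3 with p under 0.05 before adjustment. The fit was tested on simulated data. The mice are separate animals. Each p-value sets a group difference against the spread between mice within groups, pooled over all groups fitted and moderated by limma. The members, the gene lists and the rule for named genes (all members, the 20 called list genes with the largest fold changes, *Inhba*, *Bmp6*, *Smad1*, *Slc40a1* and *Atoh8*, and the 5 probe sets most like each called member) were chosen with earlier results of these data known.

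Deviations from the group means were correlated over probe sets. Between same-numbered WTCR and *Dgat1*-/-AL arrays r was 0.48, 0.25 and 0.21, and between same-numbered arrays of either group and WTAL it was -0.32 to 0.05. Between arrays of different number r was -0.37 to 0.18 for WTCR and *Dgat1*-/-AL, and reached 0.31 for *Dgat1*-/-AL and WTAL. Only the replicate 1 arrays of WTCR and *Dgat1*-/-AL stood above all other pairs. A pairing by number is thus not established by these values, and the labels name none. Alternatives were each array left out, the 2 compared groups alone, the replicate block, arrays centred again on their medians or quantile-normalized again, probe sets with a mean log2 of at least 6, limma with trend and robust moderation, and a threshold on adjusted p. Promoters were aligned with Biopython 1.88 (global, affine gaps).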

Additional observations from a re-analysis of the deposited data

How the results depend on the processing

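The *Id3* calls in both comparisons and the *Id2* calls held in each alternative fit at the thresholds of the study, while those of *Hamp2* and *Tfrc* against WTAL each depended on 4 of 9 arrays. At an adjusted limma p under 0.05 over all probe sets in place of the fold and unadjusted p, 1 member (*Id3*) was called in WTCR against WTAL, 0 in *Dgat1*-/-AL against WTAL and 0 in WTCR against *Dgat1*-/-AL, against 4, 1 and 2 members at the thresholds of the study. With each array left out, members called numbered 2 to 5 in WTCR against WTAL (2 without WTCR replicate 3 or WTAL replicate 3), 1 to 1 in *Dgat1*-/-AL against WTAL and 2 to 5 in WTCR against *Dgat1*-/-AL (5 without *Dgat1*-/-AL replicate 1), and pathway genes called numbered 10 to 18, 3 to 6 and 14 to 19 in those comparisons, where 7.19% to 8.77%, 1.15% to 2.30% and 7.40% to 10.3% of all probe sets were called. With the replicate number as a block over all arrays, 3, 1 and 2 members and 17, 5 and 18 pathway genes were called. Of all probe sets 8.06%, 1.25% and 8.61% were called in that fit. *Hamp2* in WTCR against WTAL lost its call (limma, unadjusted p = 0.0502, adjusted p = 0.339, over a range of 0.157 to 0.607 among its alternatives). *Saa1* in WTCR against WTAL and *Bmper* in WTCR against *Dgat1*-/-AL gained one, and no other call of a member or named gene changed. In the labels, same-numbered arrays share only a number. The 6 WTCR and *Dgat1*-/-AL arrays alone were an alternative chosen after seeing the correlations of their same-numbered arrays. In them 2 members and 20 pathway genes were called with the block, beside 9.39% of all probe sets. Without it 2 members and 14 pathway genes were called, beside 7.71%, against 16 pathway genes and 8.59% over 9 arrays. Among the genes named, *Inhbc* was not called in either of these fits, *Bmp10* only with the block and *Bmper* only with the block. The WTCR and WTAL arrays alone added calls of *Tfr2* and *Saa1*, and *Saa1* was also called with a mean log2 of at least 6 or with trend and robust moderation. Quantile normalization again ended the call of *Tfrc* in WTCR against WTAL (0.62) and those of *Tgfbr1*, *Tgfbr2* and *Smad4* there. No called change of a member or named gene turned its sign under any alternative. The SE of the members' fold changes ran from 0.06 (*Smad6*) to 0.82 (*Hamp2*), so that with 3 mice per group a 1.3-fold difference was not detectable at *Hamp2* and the other probe sets with a wide spread.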
